A study of Homo sapiens with 12 samples.

Results

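The transcriptome of HEK293T cells that received a GFP control plasmid was described from 2 poly-A RNA libraries. HEK293T is a line grown from human embryonic kidney that carries adenovirus DNA and the SV40 large T antigen. The 2 libraries, replicates 1 and 2, are those the labels give as GFP transfection among the 6 poly-A libraries and 12 samples in all. The series also holds cells that received GFP reporters with a BCL2L11 or TRIM9 trigger of microRNA degradation, which were not compared here. Cells were lysed 48 h after they received 2 µg of plasmid per well, and the labels name PEI and lipofectamine 3000 without saying which of them each sample received. The replicates are called biological in the series' text, and no untransfected sample is among the samples used here, so the levels are those of transfected cells of 1 line. RNA of the GFP plasmid, the T antigen and the adenovirus genes was not analysed here. All values below are given for replicate 1 first and replicate 2 second, as FPKM (mapped fragments scaled to transcript length and to the depth of the library), summed over the annotated transcripts of a gene.

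A growing cell line spends much of its poly-A RNA on the protein synthesis machinery, on energy metabolism and on the cytoskeleton. Genes that mark a lineage, mostly transcription factors, adhesion molecules and receptors, lie far below these in level and tell tissues apart. HEK293 cells came from a kidney culture, yet are widely described as carrying features of neural and adrenal cells as well. The lists used below therefore held markers of the nephron, the adrenal gland, the nervous system and of cell types that should be missing.

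The summed coverage amounted to 3534 and 3397 aligned megabases. At least 1 FPKM was reached by 13830 and 14598 genes. In both libraries 13092 of the 67053 listed genes (19.5%) reached it, which is called detected from here on. Genes were counted here by gene identifier, so a symbol with several loci can count more than once. Of the 13092 detected, 801 lay off the assembled chromosomes and 12291 on them. A further 2244 genes reached 1 FPKM in 1 library only, and 34540 genes were listed at 0 in both. Among protein-coding genes on the assembled chromosomes 10584 of 18937 were detected (55.9%), and this share is the background for the lists of protein-coding genes below. The median protein-coding gene stood at 1.94 and 2.78 FPKM, and the median detected gene at 7.398 and 9.002 FPKM. Levels spread widely above that, with 5099 genes at 10 FPKM or more in both libraries, 472 at 100 or more and 36 at 1000 or more.

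The libraries were not alike in one respect that touches most results. Over the detected genes log2(FPKM + 1) correlated with Pearson's r of 0.952 and Spearman's rho of 0.937, a description across 13092 genes, which are not independent replicates. Within 2-fold of each other lay 87.8% of them, while 448 (3.42%) were more than 2-fold higher in replicate 1 and 1143 (8.73%) in replicate 2. The difference followed RNA length. Genes were split into 10 equal groups by RNA length. In the group with the shortest RNAs (59 to 952 bases) the median log2 ratio of replicate 2 over replicate 1 was -0.45, and in the group with the longest RNAs (6033 to 37027 bases) it was 0.74. Across genes the log2 ratio and the length had a Spearman's rho of 0.533. By these medians short RNAs were listed higher in replicate 1 and long ones higher in replicate 2, with exceptions such as the short mitochondrial RNA MT-ATP6 (681 bases, 3440 and 4705 FPKM) and RPL8 (929 bases, 1170 and 1542). What lay behind the relation was not tested.

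**Figure D1:**
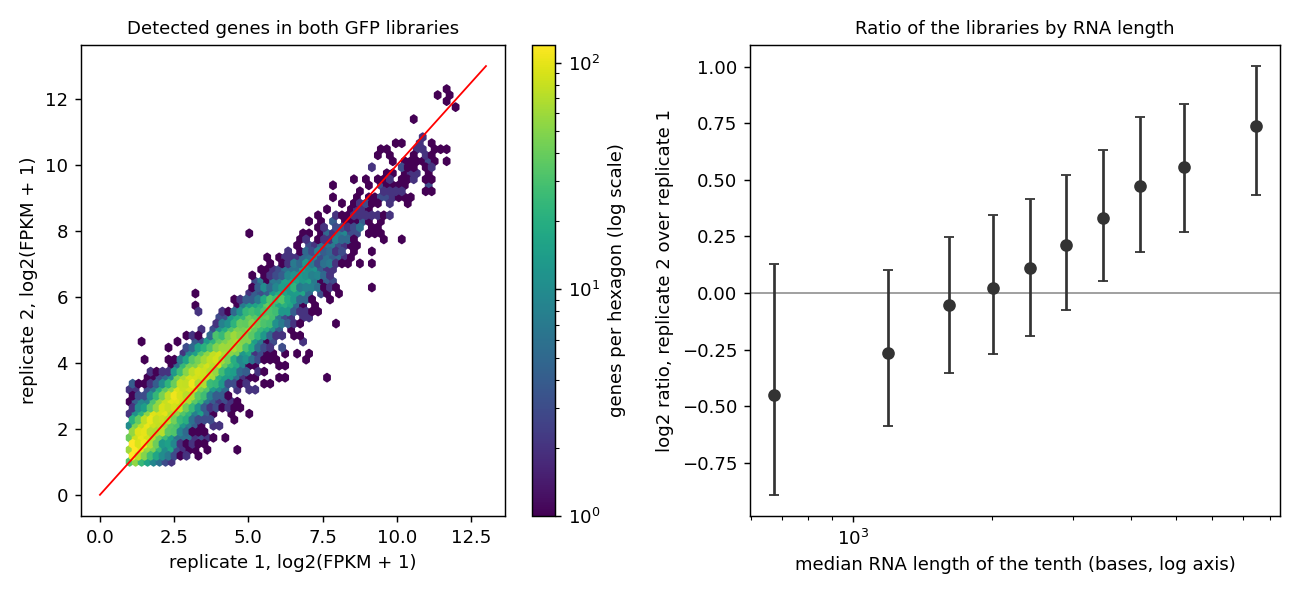
Left, log2(FPKM + 1) of the detected genes in replicate 1 (x axis) and replicate 2 (y axis), with the number of genes per hexagon as colour on a log scale and the line of equal values in red. Right, the log2 ratio of replicate 2 over replicate 1 for 10 equal groups of genes ordered by RNA length (log axis, points are medians and bars the middle 50% of genes), which climbs from -0.45 in the shortest to 0.74 in the longest.

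Few genes held much of the RNA. The 10 most abundant genes held 7.17% and 8.00% of all FPKM, the 100 most abundant 34.8% and 28.8%, and the 1000 most abundant 67.0% and 59.2%. In replicate 1 the leading 302 genes held 50% of all FPKM and in replicate 2 the leading 531. Protein-coding genes of the nucleus held 89.4% and 85.6%, and the mitochondrial genome 5.82% and 9.44%. Long noncoding RNAs, of which 353 were detected, held 1.011% and 1.003%.

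At the top stood RNAs for oxidative phosphorylation made in mitochondria and mRNAs of ribosomal proteins. MT-CO1, which encodes a core subunit of cytochrome c oxidase (ENSG00000198804.2, mitochondrial genome, 5904 to 7445), had the highest mean, with 3146 and 5047 FPKM. MT-ATP6, a subunit of ATP synthase, had 3440 and 4705 FPKM. The oxidase subunits MT-CO2 (3409 and 3894) and MT-CO3 (2559 and 4383) and the complex I subunit MT-ND4 (1563 and 2525) were also among the leading 10. All 13 mitochondrially encoded proteins had RNA of at least 392 FPKM in replicate 1 and 749 FPKM in replicate 2, both the values of MT-ND5. Replicate 2 was the higher library for 12 of the 13, the exception being MT-ND6 (867 and 808), which is read from the other strand of the mitochondrial genome. The mitochondrial ribosomal RNA MT-RNR2 hardly differed between the libraries (1843 and 1836).

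All 79 genes for cytosolic ribosomal proteins were detected, each at 10 FPKM or more in both libraries, and together they held 25.1% and 16.0% of all FPKM. RPS2, of the small subunit (ENSG00000140988.16, chromosome 16, 1962058 to 1964841, minus strand, hg38), led them with 4324 and 3576 FPKM. RPS3A followed with 3342 and 1441, RPS15 with 3452 and 1084, RPL29 with 2959 and 1369, RPSA with 2616 and 1456 and RPL6 with 2440 and 1541. The median member stood at 1222 and 708 FPKM, and 70 of the 79 were higher in replicate 1, the direction that short RNAs showed in general. Among the genes ranked next, RPS4X, RPL5, RPS10, RPL13A, RPS12, RPL27, RPLP0, RPL3 and RPL24 each had a mean of at least 1608 FPKM, the value of RPL24. Because ribosomal protein genes have many processed copies, the assignment of reads among them is uncertain. RPS18 shows this for annotated copies on alternative contigs: 402 and 251 FPKM were listed at its locus on chromosome 6, which ranked 165, but 2222 and 1382 FPKM were summed over its 6 loci, which ranks 14. RPS9 likewise had 118 and 61.9 FPKM at 1 locus and 1056 and 655 over 10.

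Paralogs of the ribosomal proteins were present too, 6 of 8, at a lower level. RPL26L1 had 119 and 94.8 FPKM, RPL36AL 112 and 98.9, RPL7L1 81.7 and 83.0 and RPL22L1 81.5 and 56.8. RPL39L, known from testis and stem cells, stood at 13.2 and 8.36 FPKM. The muscle paralog RPL3L (0.0478 and 0.291) was below 1 FPKM, and RPL10L, of the testis, was listed at 0 in both libraries.

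Of the remaining genes among the leading 25, each has a role that every cell uses. EEF1A1, the elongation factor that brings aminoacyl-tRNA to the ribosome (ENSG00000156508.18, chromosome 6, 73515750 to 73523797, minus strand), had 1941 and 1870 FPKM, and by its long RNA it held the largest share of aligned bases of any single gene named here (1.07% and 0.976%). GAPDH, the glycolytic enzyme (ENSG00000111640.15, chromosome 12, 6534512 to 6538374, plus strand), had 1658 and 1592 FPKM. UBB, a polyubiquitin gene, had 1807 and 1385 FPKM. For EEF1A1 and GAPDH the libraries lay close together, as they did for the ribosomal protein gene RPL27 (1768 and 1599).

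**Figure D2:**
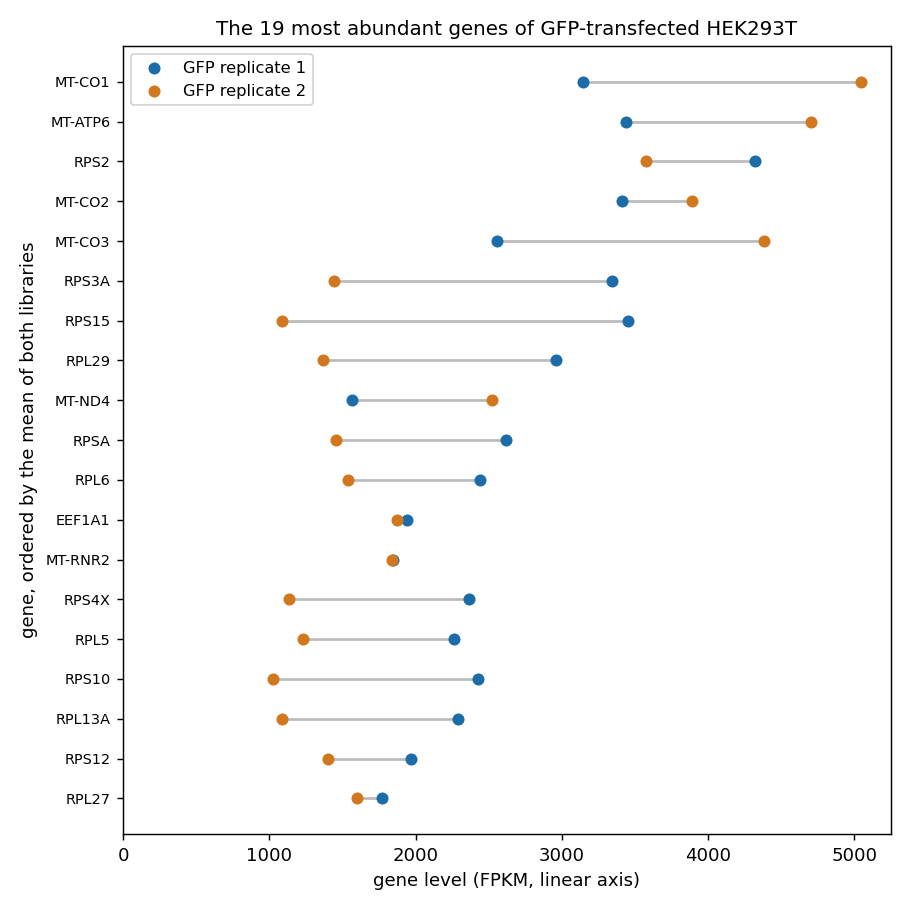
The 19 genes of highest mean, ordered from the top, with their level in FPKM on a linear axis in GFP replicate 1 (blue) and replicate 2 (orange), joined by a grey line. The mitochondrially encoded proteins lie to the right in replicate 2 (MT-CO1 3146 and 5047) and the ribosomal protein genes to the right in replicate 1 (RPS15 3452 and 1084).

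Promoter sequence was looked at for the abundant genes because many of them share known start elements. Windows of 300 bases (250 before and 50 after the start) came from RefSeq, GRCh38.p14, and 80 of the 100 most abundant nuclear genes had one. The TATA box letters TATAAA, read on either strand 40 to 11 bases before the start, were present in 9 of these 80 (11.25%), against 3.20% of all 27305 promoters. Among detected genes the share was 1.88% and among protein-coding genes not detected 7.51%. The 9 windows are shown in full, 30 bases each, 5′ to 3′ on the strand of the gene, with the match in capitals (TTTATA is TATAAA on the opposite strand). Their coordinates are given after the sequences.
RPLP0: actttgttcgcatTATAAAaggcacgcgcg
RPL3: agatttggcTTTATAtagcggacccgtaag
RPS3: gctcgcgcccTTTATActcacttccgcccg
EEF2: ggcgtccgccTATAAAaagctgagtgttga
H2AZ1: attctgcagTATAAAgggagcagggaaggc
RPS28: gtgctagaacgtccTATAAAggctctcccc
TXN: cgtgccagttTATAAAgggagagagcaagc
PPIA: cgaacgtggTATAAAaggggcgggaggcca
SLC25A5: ccggctccccctaTATAAAtcggccatttg

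These windows lie at chr12:120201122-120201151 (RPLP0, minus strand), chr22:39319634-39319663 (RPL3, minus), chr11:75399478-75399507 (RPS3, plus), chr19:3985474-3985503 (EEF2, minus), chr4:99950286-99950315 (H2AZ1, minus), chr19:8321456-8321485 (RPS28, plus), chr9:110256518-110256547 (TXN, minus), chr7:44796641-44796670 (PPIA, plus) and chrX:119468404-119468433 (SLC25A5, plus). In all 9 the match began 26 to 31 bases before the start. The genes differ in function: RPLP0, RPL3, RPS3 and RPS28 are ribosomal proteins, EEF2 moves the ribosome along the mRNA, H2AZ1 is a histone variant, TXN is thioredoxin, PPIA is cyclophilin A and SLC25A5 exchanges ADP and ATP across the inner mitochondrial membrane. By the mean of both libraries, levels within the set ran from SLC25A5, with 604 and 352 FPKM, to RPLP0, with 2196 and 1092. In replicate 2 alone RPS28 was lowest (219) and RPL3 highest (1241).

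The second element was a start with C followed by 4 bases that are each C or T on the strand of the gene, the beginning of the terminal oligopyrimidine tract by which translation of ribosomal protein mRNAs is regulated. It was found at 43 of the 63 ribosomal protein genes with a promoter (68.3%) and at 12 of 32 translation factors (37.5%). All promoters held it in 4.04% and glycolysis genes in 3.57%. The pattern lies at the start itself and so does not overlap the window of the TATA letters. A match describes letters in an annotated window and does not show that a factor binds or where these cells start the RNA.

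Translation factors were nearly complete, with 42 of 43 detected and a median of 127 and 122 FPKM. After EEF1A1 came EEF2 (759 and 879), EEF1G, which is part of the elongation factor complex (1041 and 513), the helicase EIF4A1 (849 and 637) and NACA, which binds nascent chains (722 and 586). PABPC3, a testis paralog of the poly-A binding protein PABPC1 (238 and 272), was the single member not detected (0.112 and 0.0736). EEF1A2, the paralog of EEF1A1 known from neurons and muscle, was present at 43.8 and 44.5 FPKM. EEF1A1 exceeded it 44.3-fold and 42.0-fold.

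Of 33 genes for glycolysis and glucose uptake 23 were detected. In each pair of isoenzymes compared below the same one was higher in both libraries, by a small or a large factor. ENO1, the enolase of most tissues, had 1372 and 1071 FPKM, 181-fold and 107-fold more than ENO2 (7.57 and 10.02), the neuronal form. ALDOA had 466 and 405 FPKM, 117-fold and 73.2-fold more than ALDOC. LDHB had 1016 and 653 FPKM against 236 and 217 for LDHA, the lactate dehydrogenase subunit known from muscle, a ratio of 4.31 and 3.01. Summed over its 2 loci LDHA had 471 and 433 FPKM, still below LDHB. TPI1, which interconverts the triose phosphates, had 501 and 390 FPKM. HK1, which phosphorylates glucose, exceeded HK2 2.17-fold and 1.56-fold. The 10 members not detected included the isoforms HK3, PKLR, PGK2, PGAM2, GAPDHS, SLC2A2 and SLC2A4, each known from particular tissues, and the lactate exporter SLC16A3 (0.298 and 0.899).

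Among the cytoskeletal genes the cytoplasmic forms led. ACTG1 had 1366 and 869 FPKM, above ACTB with 944 and 557, so gamma actin RNA exceeded beta actin RNA 1.45-fold and 1.56-fold. The muscle actins ACTA2 (14.7 and 14.6) and ACTA1 (4.67 and 5.12) were detected at far lower levels, and ACTC1 (0.465 and 0.122) and ACTG2 (0 and 0.0289) were not. TUBA1B led the tubulins with 1249 and 964 FPKM, followed by TUBA1C (250 and 184), whose sequence is nearly the same, so their split is uncertain. TUBB had 77.5 and 65.7 FPKM at its locus on the assembled chromosome but 578 and 493 summed over its 8 loci, which places it above TUBA1C. TUBB1, of platelets, and TUBB8, of oocytes, were the 2 of 14 tubulins below 1 FPKM.

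VIM, the intermediate filament protein of mesenchymal and many cultured cells (ENSG00000026025.16, chromosome 10, 17228241 to 17237593, plus strand), had 416 and 368 FPKM and led its family. The keratins of simple epithelia were present as well, KRT18 with 31.6 and 22.2 FPKM and its partner KRT8 with 13.2 and 9.60. VIM thus exceeded KRT18 13.2-fold and 16.6-fold. In this family 3 neuronal subunits were detected beside them, namely INA (16.9 and 20.1), NEFM (13.6 and 21.3) and NEFL (9.84 and 13.7), while NEFH was not (0.294 and 0.341). KRT5, KRT7, KRT14 and KRT19 were listed at 0 in both libraries.

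Proliferation genes were nearly all present, 38 of 39, with a median of 47.5 and 48.9 FPKM. PCNA, the sliding clamp of DNA polymerase, had 266 and 241 FPKM, and MCM7, a subunit of the replicative helicase, 255 and 215. CDKN2A, which encodes inhibitors of the cell cycle (ENSG00000147889.17, chromosome 9, 21967753 to 21995301, minus strand), ranked next with 154 and 211 FPKM. Of the D-type cyclins CCND3 was the highest (17.1 and 16.8), 3.57-fold and 2.58-fold above CCND1 (4.81 and 6.53). CDKN1C, an imprinted inhibitor of cyclin-dependent kinases, reached 1 FPKM in replicate 2 alone (0.670 and 1.01), but in both libraries when summed over its 2 loci (1.32 and 1.89).

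Of the 20 regulators of kidney development 9 were detected (45%), below the 55.9% of all protein-coding genes, and the highest were 3 transcription regulators of the nephron progenitors and the stroma. CITED1 (ENSG00000125931.11, chromosome X, 72301638 to 72307187, minus strand) had 15.2 and 13.4 FPKM, and SIX2, which keeps nephron progenitors undifferentiated, had 12.7 and 12.4. FOXD1, of the stroma, had 6.34 and 18.2 FPKM. SALL1 (5.18 and 8.53), SIX4, EYA1, GATA3 and WT1 were also detected. PAX2 (0.0886 and 0.613), PAX8 (0 and 0.0370) and LHX1 (0.187 and 0.764, or 0.462 and 1.60 summed over its 2 loci), which specify the renal lineage and its epithelia, were not, nor were RET and its ligand GDNF. In bulk RNA, fewer cells of a type and less RNA per cell cannot be told apart.

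Of 16 proximal tubule genes 2 were detected, GPX3, a secreted glutathione peroxidase (21.01 and 13.5), and SLC13A3, a dicarboxylate carrier (4.297 and 3.93). The endocytic receptor LRP2 reached 1 FPKM in replicate 2 alone (0.759 and 1.84), its partner CUBN did not (0.0693 and 0.283), and SLC34A1, SLC22A6 and SLC22A8 were listed at 0. Of 9 podocyte genes 3 were detected, among them PODXL (2.79 and 4.70) and WT1 (2.17 and 2.12), but NPHS1 of the slit diaphragm was not (0.0865 and 0). None of the 17 genes of the distal nephron and collecting duct was detected, and AQP3 came nearest (0.711 and 1.48). The tissue named in the label was therefore not visible through the defining genes of differentiated nephron segments.

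Of the adrenal lists few members were detected. FDX1 (13.4 and 14.1) and FDXR (7.35 and 8.51), which pass electrons to mitochondrial P450 enzymes in many tissues, were the detected members of 13 adrenal cortex genes. The steroidogenic enzymes CYP11A1, CYP21A2, CYP11B1 and CYP11B2 were listed at 0, and the regulator NR5A1 stood at 0.0792 and 0.0712. From the adrenal medulla list 4 of 17 genes were detected, all transcription factors: GATA2 (9.22 and 20.3), HAND1 (6.45 and 6.96), ISL1 (4.87 and 4.63) and GATA3 (2.46 and 5.39). TH and DBH, which make catecholamines, were listed at 0, as was PHOX2A.

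Of 23 neuronal genes 11 were detected (47.8%), below the 55.9% of all protein-coding genes. UCHL1, the ubiquitin hydrolase abundant in neurons (ENSG00000154277.13, chromosome 4, 41256413 to 41268455, plus strand), had 322 and 127 FPKM, far above the rest. TUBB3 (9.43 and 10.04), ELAVL2 (3.26 and 5.27), SYP (3.84 and 4.36), SYT1 (1.56 and 2.51), NCAM1 (1.27 and 2.47) and GAP43 (1.15 and 1.42) joined ENO2 and the 3 neurofilament subunits given above. MAP2, SYN1, SNAP25 and L1CAM remained below 1 FPKM in both libraries, and ELAVL4 was listed at 0. Of the synaptic genes, SYP and SYT1 were thus above the line and SYN1 and SNAP25 below it.

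Of 16 genes for neural progenitors and neural crest 10 were detected (62.5%), the largest share among the tissue lists and near the 55.9% of all protein-coding genes. ZIC2, a zinc finger factor of the dorsal neural tube (ENSG00000043355.12, chromosome 13, 99981784 to 99986765, plus strand), had 34.9 and 42.5 FPKM, 120-fold and 150-fold more than its paralog ZIC1 (0.291 and 0.283). MSX2 (13.4 and 19.3), TFAP2A (8.00 and 15.3), MSX1 (7.69 and 15.01) and SNAI2 (8.02 and 8.06), factors of the neural plate border and the crest, came next. PAX6, SOX2, SOX9, FOXD3 and TWIST1 were detected at lower levels. SOX10 (0.0584 and 0.0418) and TFAP2B, of the migrating crest, were not, and neither was NES (0.718 and 0.617). Among 10 glial genes SLC1A3, a glutamate carrier (5.86 and 10.5), and OLIG2 (4.24 and 4.67) were the detected members.

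Among adhesion genes the neural and mesenchymal cadherin was well above the epithelial one. CDH2, neural cadherin, had 15.9 and 20.6 FPKM, 22.5-fold and 22.1-fold more than CDH1, epithelial cadherin (0.707 and 0.930). The repressors of CDH1, ZEB1 (3.36 and 6.44) and ZEB2 (3.13 and 8.77), were both detected. Of 17 epithelial genes KRT18 and KRT8 alone were detected, and EPCAM reached 1 FPKM in replicate 1 alone (1.32 and 0.629). Of 19 mesenchymal genes 9 were detected, VIM far above COL6A1 (9.72 and 11.1), FN1 (3.40 and 3.86) and COL1A1 (1.27 and 1.87). COL1A2, the partner chain of COL1A1, was listed at 0, with DCN, FAP, POSTN and THY1. Among integrins ITGB1, the common beta chain, was highest with 8.90 and 23.8 FPKM.

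**Figure D3:**
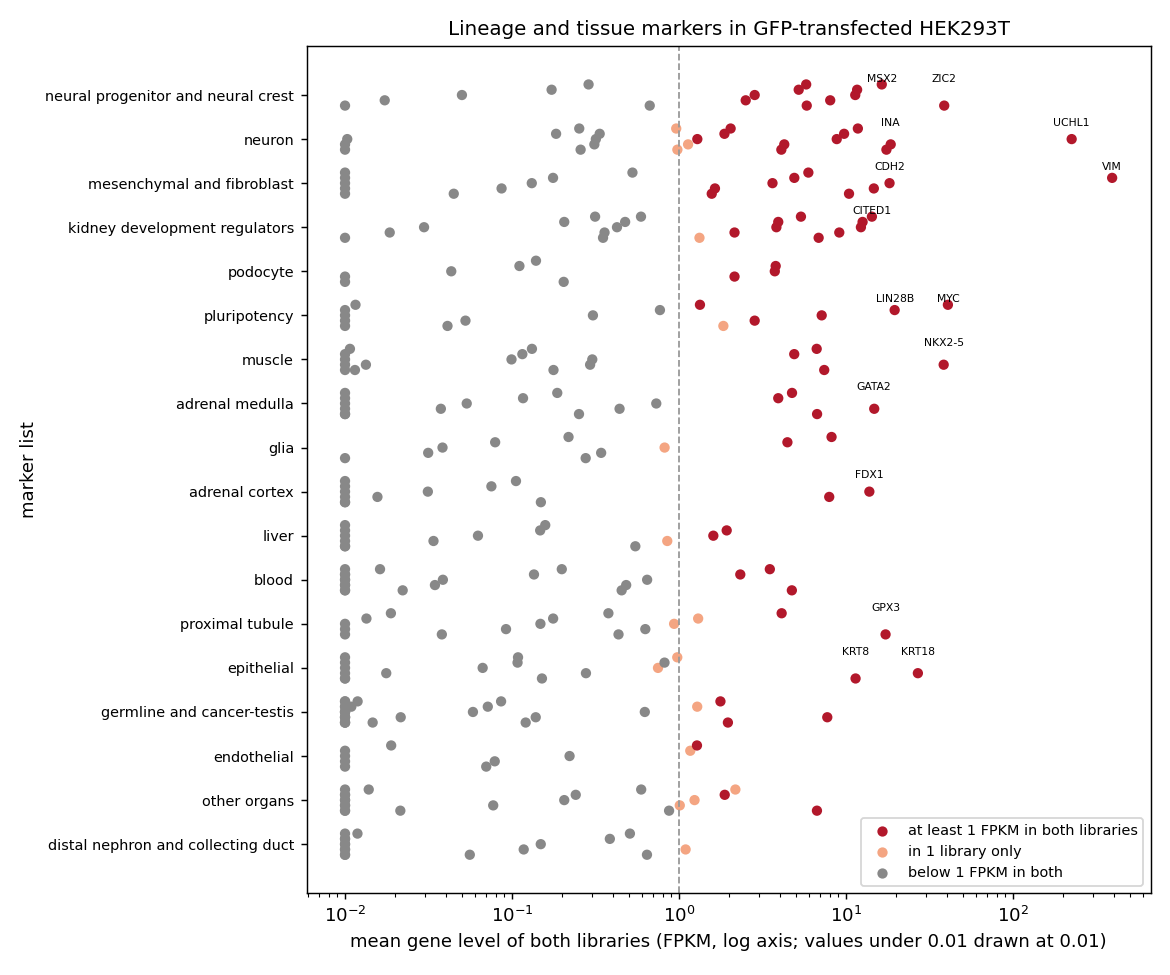
Mean level of both libraries (FPKM, log axis, values under 0.01 drawn at 0.01) of each member of 18 marker lists, 1 point a gene, with red for at least 1 FPKM in both libraries, light orange for 1 library only and grey for less in both. The dashed line marks 1 FPKM. The neural progenitor list has 10 of 16 points in red to the right of it and the neuron list 11 of 23. The mesenchymal list has 9 of 19 and the kidney development list 9 of 20. Of all protein-coding genes on the assembled chromosomes 55.9% were detected. The distal nephron list has none of 17 in red, and VIM and UCHL1 stand far to the right. Names are given to some of the genes with a mean of at least 10 FPKM.

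Markers of unrelated tissues were largely missing, with single exceptions. Of 10 endothelial genes ESAM alone was detected, just above the line (1.45 and 1.11). Among 21 blood genes the alpha globins HBA1 (7.12 and 2.35) and HBA2 (5.02 and 1.97), whose coding sequences are the same and whose split is uncertain, and CD14 (2.89 and 1.76) were detected. PTPRC, the pan-leukocyte marker, and the T cell genes CD3D and CD3E were listed at 0. NKX2-5, a factor of the embryonic heart (ENSG00000183072.10, chromosome 5, 173232109 to 173235311, minus strand), stood at 39.6 and 37.2 FPKM and led the muscle list of 17 genes. TNNI3, cardiac troponin I (9.94 and 4.86), and TNNT1, slow skeletal troponin T (7.51 and 5.84), were detected as well, while MYOD1, DES and the myosins MYH6 and MYH7 were not. CDX2, of the hindgut, had 5.76 and 7.63 FPKM without its paralog CDX1, which was listed at 0. Of 14 liver genes CYP2E1 (1.97 and 1.89) and ALB (2.06 and 1.15) were detected.

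Pluripotency and germline genes were mostly off. MYC (29.6 and 51.8), LIN28B, which blocks let-7 maturation (12.99 and 26.1), DNMT3B (6.43 and 7.86), SOX2 (2.35 and 3.32) and UTF1 (1.33 and 1.34) were the 5 detected of 15 pluripotency genes. The core factors POU5F1 (0.114 and 0.496) and NANOG (0 in both) were not detected, nor was LIN28A (0 and 0.0821), the paralog of LIN28B. Of 27 germline and cancer-testis genes PRAME (8.68 and 6.75), MAGEB2 (2.16 and 1.76) and MAGEA6 (1.93 and 1.61) were detected. PRAME has 2 loci in the annotation, which sum to 17.5 and 13.5 FPKM. MAGEA6 and MAGEA3 (1.84 and 0.727) are nearly identical, so their values are uncertain.

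HOX genes, which set position along the body axis, were detected in 35 of 39 cases, a far larger share than any list of tissue markers and above the 55.9% background. The median HOX gene had 7.72 and 11.8 FPKM, against 1.94 and 2.78 for protein-coding genes. All 11 genes of cluster A were detected, 9 of 10 in cluster B, 8 of 9 in cluster C and 7 of 9 in cluster D. HOXB9 (ENSG00000170689.10, chromosome 17, 48621156 to 48626358, minus strand) was the highest with 52.1 and 58.9 FPKM. HOXA9 (37.6 and 49.6), HOXD13 (40.3 and 44.0), HOXA5 (42.4 and 39.1) and HOXB6 (35.1 and 41.4) followed. The 4 genes not detected were HOXB1, HOXD1, HOXC12 and HOXD12.

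With all clusters pooled, median levels differed by the number of the gene, and no comparison by number was made within a cluster. Genes numbered 1 to 3, which act toward the head, had a median of 4.44 and 5.64 FPKM with 6 of 8 detected. Those numbered 4 to 8 had a median of 6.25 and 8.96 with 15 of 15 detected, and those numbered 9 to 13 had 10.6 and 12.5 with 14 of 16. At the tail end HOXD13 exceeded HOXA13 (3.15 and 4.57) 12.8-fold and 9.64-fold. HOXA6 was the least even detected member between libraries, with 1.77 and 15.2 FPKM. Overlapping transcripts and antisense RNAs are dense in these clusters, and whether the counting used strand is not given in the sources used here, so single values there are uncertain.

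**Figure D4:**
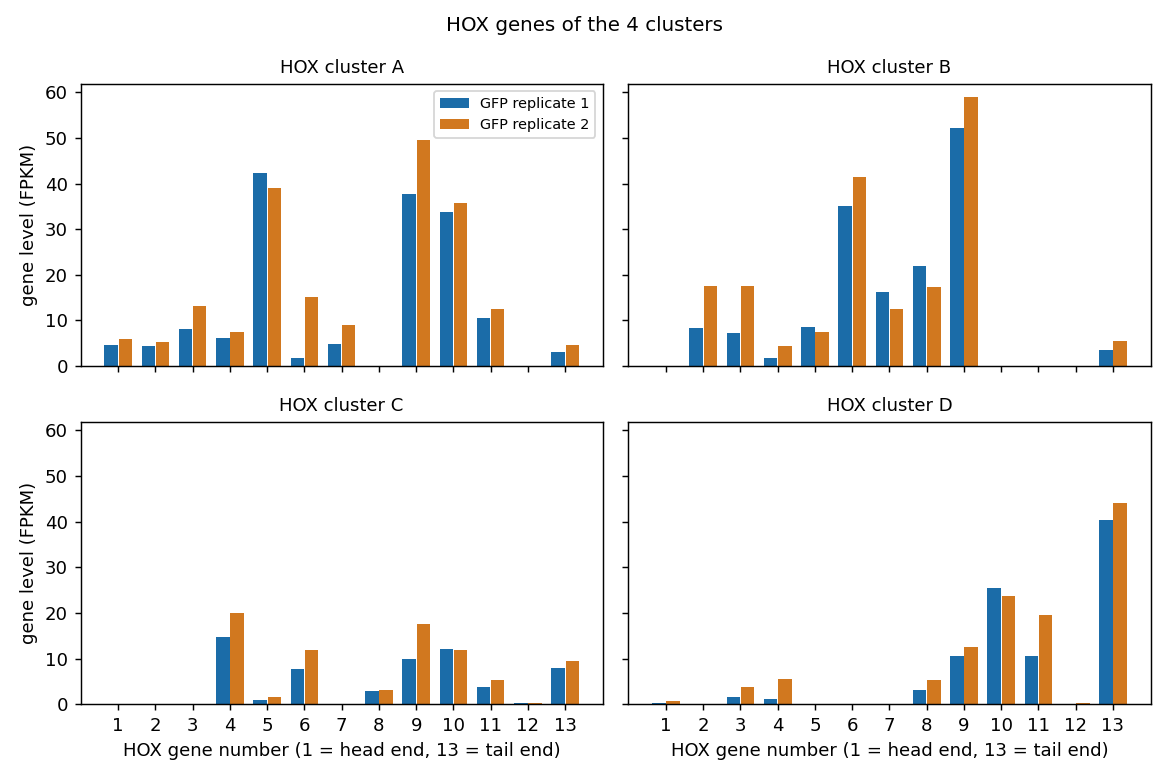
Level in FPKM (linear axis from 0) of each HOX gene in GFP replicate 1 (blue) and replicate 2 (orange), 1 panel a cluster, ordered by gene number. Numbers for which a cluster has no gene are empty as well. Cluster B peaks at HOXB9 (52.1 and 58.9), cluster D at HOXD13 (40.3 and 44.0), and cluster C has the lowest sum (60.02 and 81.1), while cluster D has the lowest median (3.08 and 5.56).

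Receptors and channels were low where present, whereas a larger share of the proteins that relay the signals of G protein-coupled receptors was detected. Of 38 growth factor receptors and their docking proteins 14 were detected. IRS4, a docking protein of the insulin and IGF1 receptors (ENSG00000133124.11, chromosome X, 108732482 to 108736409, minus strand), led them by its mean but was the most uneven, with 8.61 and 65.9 FPKM. FGFR1 (9.69 and 10.3), FGFR2 (7.27 and 7.84), FGFR3 (8.38 and 18.4) and FGFR4 (5.16 and 6.01) were all detected. ERBB2 (6.95 and 9.43) was detected, and EGFR was near the line (0.555 and 1.17). FGFR1 exceeded EGFR 17.5-fold and 8.79-fold.

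Of 67 G protein-coupled receptors 10 were detected, all below 10 FPKM. The highest were the purinergic receptor P2RY11 (9.16 and 5.99), the protease receptor F2RL1 (4.38 and 5.99), ADRA2C (3.80 and 5.84), CXCR4 (4.80 and 3.64) and the adenosine receptor ADORA2B (3.02 and 4.86). By contrast 26 of 35 G protein subunits, cyclases, kinases and arrestins were detected (74.3%). The median of the 35 was 2.53 and 4.02 FPKM, against 1.94 and 2.78 for protein-coding genes, and 10 reached 10 FPKM in both libraries. GNAS, the stimulatory alpha subunit (ENSG00000087460.26, chromosome 20, 58839718 to 58911192, plus strand), had 543 and 479 FPKM, 29.4-fold and 24.2-fold more than GNAI2. Of 42 voltage-gated channels 3 were detected, among them the potassium channels KCNC4 (1.40 and 2.32) and KCNQ5 (1.43 and 1.94). HEK293 cells are widely used as a host for cloned receptors and channels, for which the level of the cell's own ones matters.

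Of 30 receptors that viruses use for entry 21 were detected. The amino acid carrier SLC1A5 (54.1 and 79.3) and the phosphate carrier SLC20A1 (40.6 and 40.6), through which retroviruses enter, were highest. TFRC, the transferrin receptor, had 27.1 and 48.0 FPKM, SLC7A1 13.5 and 26.0 and NECTIN2, of herpesviruses, 18.5 and 19.7. CXADR, the receptor of coxsackieviruses and adenoviruses, had 8.70 and 9.52 FPKM. DPP4 (0.157 and 0.505), SLC10A1 (0.144 and 0.201), CD4 (0 and 0.0324) and TMPRSS2 (0.0264 and 0) were below 1 FPKM, and HAVCR1 was listed at 0.

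Among 24 genes of drug metabolism and efflux 9 were detected, with GSTP1, a glutathione transferase, far ahead (394 and 264). The cytochrome CYP3A4 of the liver stood at 0 and 0.0677. ABCB1, the multidrug pump, was present at 2.44 and 2.40 FPKM. Of 48 nuclear receptors 22 were detected, led by NR2F6 (13.96 and 25.5), NR2F1 (15.02 and 19.9) and NR2F2 (11.9 and 20.8), which are paralogs, and by the oxysterol receptor NR1H2 (11.8 and 10.4). RXRB, a partner of other nuclear receptors, had 1.66 and 2.16 FPKM at 1 locus but 11.2 and 17.3 over its 6 loci. The hormone receptors ESR1 (0.0447 and 0.0701) and PGR (0.0126 and 0.0406) were not detected, while the glucocorticoid receptor NR3C1 was (3.10 and 6.80).

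Long noncoding RNAs were led by hosts of small nucleolar RNAs, which lie in the hosts' introns and guide modification of ribosomal RNA. GAS5 had 572 and 274 FPKM, SNHG29 305 and 217, and SNHG1 160 and 162. RN7SK, an RNA without a poly-A tail that holds back transcription elongation, was listed at 202 and 70.0 FPKM. Of the 27 RNAs chosen for the list 22 were detected, whereas 353 of all 4519 genes classed as long noncoding RNAs were. H19 (0.233 and 0.00898), MEG3 (0 in both) and KCNQ1OT1 (0.0683 and 0.133), all from imprinted regions, were not. HOTAIRM1, which lies in HOX cluster A, had 41.1 and 29.1 FPKM, while HOTTIP, at the far end of the same cluster, had 0 and 0.405.

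Most genes were carried by 1 transcript model. Among the 11672 detected genes with more than 1 annotated transcript (median 8), the highest transcript held a median of 79.3% and 71.4% of the gene's FPKM. It held more than 50% in 82.2% and 74.8% of the genes and more than 90% in 35.8% and 25.5%. The same transcript was highest in both libraries for 8363 genes (71.7%), and for 58.3% it was the same and held more than 50% in both. With 2 annotated transcripts the libraries had the same highest one in 92.3% of genes, and with 21 to 239 transcripts in 46.6%. These shares are estimates by StringTie from overlapping models. Of the 3309 genes whose highest transcript was not the same, replicate 2 had the longer one in 1760 and the shorter one in 1545.

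**Figure D5:**
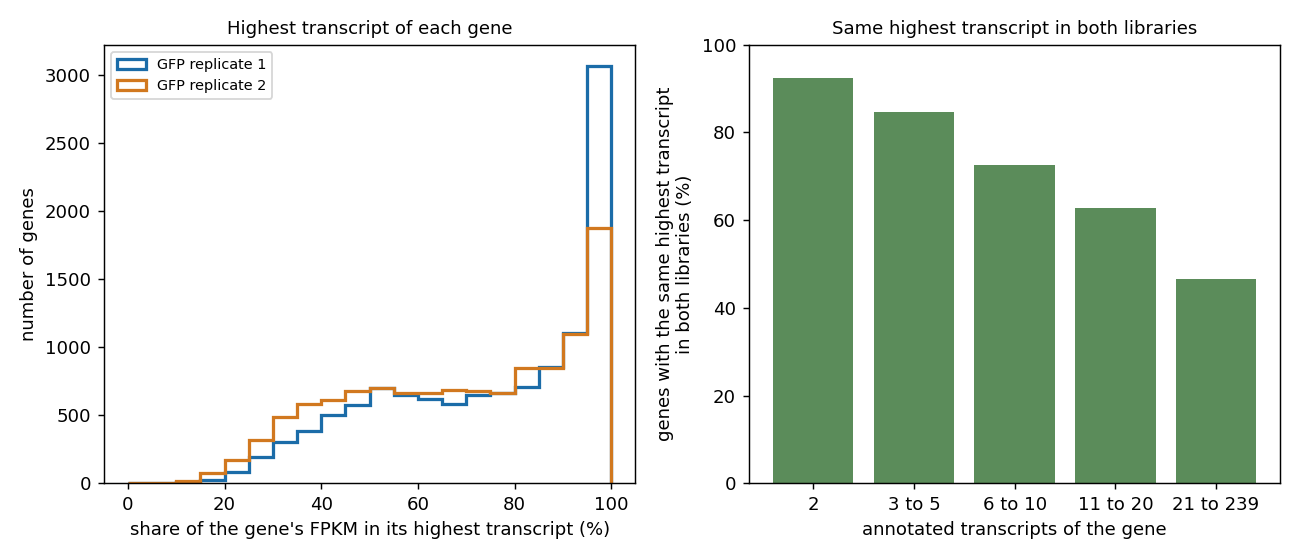
Left, number of genes (y axis) by the share of a gene's FPKM held by its highest transcript (x axis, bins of 5 percentage points) in GFP replicate 1 (blue) and replicate 2 (orange), for 11672 detected genes with more than 1 annotated transcript. Right, percent of genes with the same highest transcript in both libraries by the number of annotated transcripts, falling from 92.3% with 2 to 46.6% with 21 to 239.

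Among the most abundant genes some were carried nearly whole by 1 model. ENST00000316292.13 of EEF1A1, with 7 exons and 4441 bases, held 95.7% and 94.5%, and ENST00000316084.10 of RPS4X, with 7 exons and 1474 bases, held 97.3% and 95.4%. RPS12 was the same, with 95.2% and 96.7% in ENST00000230050.4. RPS2 was divided, its highest model holding 47.2% and 45.6% in both libraries, and RPL10 likewise with 43.1% and 46.6%.

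Other abundant genes changed their highest model between libraries. For RPL29 it was ENST00000495383.5 (713 bases) with 67.7% in replicate 1 and ENST00000294189.11 (754 bases) with 76.4% in replicate 2, each with 4 exons. RPL24 had ENST00000394077.8, with 6 exons, at 43.5% in replicate 1, and ENST00000464595.1, with 5 exons, at 86.5% in replicate 2. RPL6, RPL13, RPL35, RPL17 and RACK1 changed as well, and for RACK1, with 35 annotated transcripts, the highest held 31.4% and 26.0%. The models of RPL29 are thus close in length, whereas those of RPL13 have 2385 and 879 bases and those of RACK1 922 and 1651. The single-library shares of these genes have no error beyond the difference between the 2 libraries.

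Some further genes were looked at after their values were seen. PKM, pyruvate kinase, had ENST00000335181.10 as the highest in both libraries with 78.7% and 78.7%. GNAS, with 61 annotated transcripts, had ENST00000480975.5 (12 exons) at 54.9% and 52.7%. CDKN2A had ENST00000579755.1 first (69.0% and 52.8%) and ENST00000304494.9 second (13.2% and 32.6%). PTBP1, a repressor of neuronal exons, changed from ENST00000356948.11, with 15 exons (68.6% of replicate 1), to ENST00000349038.8, with 14 exons (38.9% of replicate 2). TUBA1B, ENO1, EEF2, VIM, HOXA9, NKX2-5 and LIN28B each kept the same highest transcript in both libraries, with 100% and 99.8% for LIN28B.

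By chromosome, chromosome 1 held the largest share of FPKM among the nuclear chromosomes described (9.45% and 9.45%, 1261 detected genes). Chromosome 19 followed with 8.095% and 6.996% and chromosome 17 with 7.15% and 6.83%. The share of protein-coding genes detected ran from 46.2% on chromosome X and 47.6% on chromosome 11 to 62.4% on chromosome 16 and 63.0% on chromosome 22. The gene-poor chromosomes 13, 18 and 21 each held close to 1% of FPKM, between 0.831% and 1.16%.

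The genes of mean level 10 FPKM or more that differed most between the libraries included genes of several kinds. Higher in replicate 1 were AC004057.1 (199 and 11.4), UPK3BL1 (24.1 and 1.45), the respiratory chain subunit NDUFB1 (120 and 15.6), RMRP (18.2 and 2.36), BOLA2B (136 and 18.9) and AC034236.1 (72.3 and 10.4). SEC61G, a short subunit of the translocation channel, also stood out with 541 and 79.3 FPKM. Higher in replicate 2 were AL035425.4 (0.463 and 26.2), the chromatin reader SPIN1 (1.83 and 24.2), IRS4, AP002990.1 (30.7 and 230), the mitochondrial ribosomal protein MRPL42 (8.28 and 51.0) and AC093484.3 (3.77 and 21.1). AL035425.4 lies 5533 bases downstream of IRS4 on the same strand of chromosome X, and both were higher in replicate 2. AC093484.3 lies within UBB on the other strand, so reads of UBB may be counted for it where strand is not used. UPK3BL1 and BOLA2B belong to near-identical copies, so their values are uncertain.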

How the data were processed

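Poly-A RNA of GFP-transfected HEK293T cells was sequenced in 2 libraries. The submitters' processing notes name hg38 as the build and list STAR, cutadapt 3.4, StringTie 2.1.3 and DESeq2 1.20.0, with no roles or settings. Each of the deposited StringTie tables gives, per the file headers, a mean coverage signal, an FPKM value and the length for 250719 transcripts. Gene FPKM was their sum per gene identifier, and aligned bases were coverage times length. In the lists and the ratios of paralogs, symbols with several loci (2355 in all) took the one on the assembled chromosomes. Counts over all genes kept every gene identifier. Gene classes and promoters came from RefSeq (GRCh38.p14) by symbol.

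With 1 group of 2 libraries no test was run and no p-value is given; no result is compared with the trigger plasmids. What separated the replicates (culture or day) is not given, so differences between them may be technical. Detected means FPKM of at least 1 in both. The correlation used log2(FPKM + 1). The members and the 40 lists (904 genes, all matched by symbol) were chosen with earlier results of these data known, and some lists share members. The rule named the 25 most abundant genes, up to 5 members a list with absent members and paralogs, 12 abundant genes and 5 of each kind for transcripts, and 6 genes per direction between libraries. Chosen outside the rule, with their values known, were further list members (absent ones of long lists included), SEC61G, the pseudogenes and the transcripts marked in the text. Python 3.11.15 with pandas 2.3.3 and scipy 1.17.1 was used. The code of the detection, share and transcript steps was checked on simulated tables without noise. Such a check cannot show how well reads were split among transcript models or loci. The alternatives were thresholds, loci, scales and leaving out each library. Some members of the lists are not reported here.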

Additional observations from a re-analysis of the deposited data

How the results depend on the processing

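The number of detected genes was 20208 at an FPKM of 0.1, 7718 at 5 and 24278 with any FPKM above 0, and 14598 without GFP replicate 1 and 13830 without GFP replicate 2. Of the 25 most abundant genes 15 were kept when ranked by share of aligned bases, which favours long RNAs, and 17 without either replicate. The 100 most abundant genes held a mean of 31.8% of FPKM, 19.4% of aligned bases and 28.8% to 34.8% of FPKM in single libraries. Pearson's r was 0.979 with no filter on low values, over all 67053 listed genes, of which 34540 were 0 in both libraries and so equal. Centred on the median log2 ratio, 90.0% of genes lay within 2-fold. The highest transcript was the same in 75.3% of genes at an FPKM of 10. Chromosome 1 ranked 2 by the median of its detected genes and 1 in either library alone. Of the list members, each gene once, 454 were detected, 463 to 490 in single libraries and 457 when loci of a symbol were summed, where CDKN1C, DRD4 and DDR1 were added. More than 50% of a gene lay in its highest transcript for 74.8% to 82.2% of genes in single libraries. Of the 40 list counts 21 moved by more than 1.5 times at an FPKM of 0.1 and 26 at 5. Calls near 1 FPKM, such as EGFR or LRP2, are therefore set by the threshold, and depth limits what can be said of genes listed at 0. No paired analysis was possible because a single group is described.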

Other observations

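Several pseudogenes were listed among the abundant genes, with values that depend on how reads shared with the parent gene were assigned. RPS2P5, a processed copy of RPS2 on chromosome 12, had 821 and 368 FPKM and ranked 104 of all genes by its mean. MTATP6P1, a copy of MT-ATP6 within a stretch of mitochondrial sequence on chromosome 1, had 273 and 432 FPKM, and like MT-ATP6 it was higher in replicate 2. RPL39P3 had 153 and 363 FPKM, the opposite direction to RPL39 (2014 and 930). EEF1A1P5 had 102 and 116 FPKM. In all 175 genes classed as pseudogenes were detected, with 0.931% and 0.947% of all FPKM.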
